A study of Mus musculus with 5 samples.

Results

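The comparison described here is that of an atherogenic diet against standard chow after 1 week in mouse liver, and it uses 2 of the 5 arrays of the study. The rule took the array titled for 1 week of atherogenic diet over the array titled for 1 week of chow, with every annotated gene as a member, so 12393 genes with a named probe set were looked at. Each array was hybridised with biotin-labelled cRNA from pooled livers of 1 group of C57B/L mice. All mice were 8 weeks old and were kept for 2 weeks before the feed began. The chow group then received standard chow for 1 week and the diet group an atherogenic feed for 1 week. Of the other 3 groups, used only for setting values side by side, 1 had chow for 10 weeks, 1 had the diet for 10 weeks and 1 had the diet for 10 weeks with atorvastatin, a statin, for the last 3 weeks. Mice of the 10-week groups were therefore older at collection than those of the 1-week groups. How many livers made a pool, the sex of the mice and what the feed contained are not stated in the labels. The source name of the 1-week diet sample reads standard chow, whereas its title, description and protocols name the atherogenic feed; it was grouped by its title. There is 1 array per group, so no test was possible, no value has a replicate error, and every ratio describes these pools.

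An atherogenic diet is usually a feed rich in fat and cholesterol, made to raise blood cholesterol in mice. The liver answers a sterol load through a few well-known circuits: less sterol lets the SREBP2 factor raise cholesterol synthesis and uptake, oxysterols act through LXR on sterol export, and bile acids act through FXR to hold down Cyp7a1, whose enzyme sets the pace of bile acid synthesis. The liver also follows feeding times through a clock in which Arntl and its partner drive the repressors Nr1d1 and Nr1d2, which in turn repress Arntl and Nfil3.

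Few genes differed by 2-fold after 1 week. A gene counted as measured if its signal, in arbitrary fluorescence units, lay above a floor of 138.9 on at least 1 of the 2 arrays; this floor is the 40th percentile of all signals, and signals below it were set to it. Of 8801 measured genes 93 were at least 2-fold higher on the diet (1.06%) and 110 at least 2-fold lower (1.25%), together 203 or 2.31%. With cyclic loess normalization the split was 138 higher and 96 lower. In 63 of the 203 the dimmer signal was at the floor, so their folds are bounds, written as "at least". Only 9 genes were past 3-fold higher and 7 past 3-fold lower. By the same rule 403 of 9101 genes (4.43%) differed between the arrays of 10 weeks and 1 week of chow. Those arrays share the feed and differ in time on it and in the age of the mice. Between diet and chow at 10 weeks 620 of 9250 (6.70%) differed. The arrays of 1 week of diet and 1 week of chow were the most alike of the 10 pairs, with a Spearman correlation of 0.945 over probe sets against 0.911 to 0.927 for the others. The median log2 ratio of all measured genes was -0.03, and 95% of genes lay between -0.84 and 0.81. With the genes split into 4 equal groups by signal, 95% of the brightest group lay within 1.62-fold and 19 of its 2200 genes passed 2-fold (0.864%), while in the group next to the dimmest 88 of 2200 did (4.0%). Beta-actin, a control of RNA integrity, gave a ratio of 3' over 5' signal of 1.20 on the chow array and 1.61 on the diet array (1.17 to 1.73 on the other 3). For the control Gapdh this ratio was 0.783 on the chow array and 1.01 on the diet array, the highest of the 5 arrays (0.832 to 0.906 on the other 3). Control probe sets of pyruvate carboxylase read 2644 on chow and 4159 on the diet at the 3' end, and 691 and 432 at the 5' end. The 18S ribosomal RNA control signal was 2185 on chow and 437.3 on the diet. The spiked-in control RNAs averaged 5.76 times their 1-week chow signal on the 10-week chow array and 1.05 to 1.88 times on the other arrays. The part of all these controls in the ratios was not tested.

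**Figure D1:**
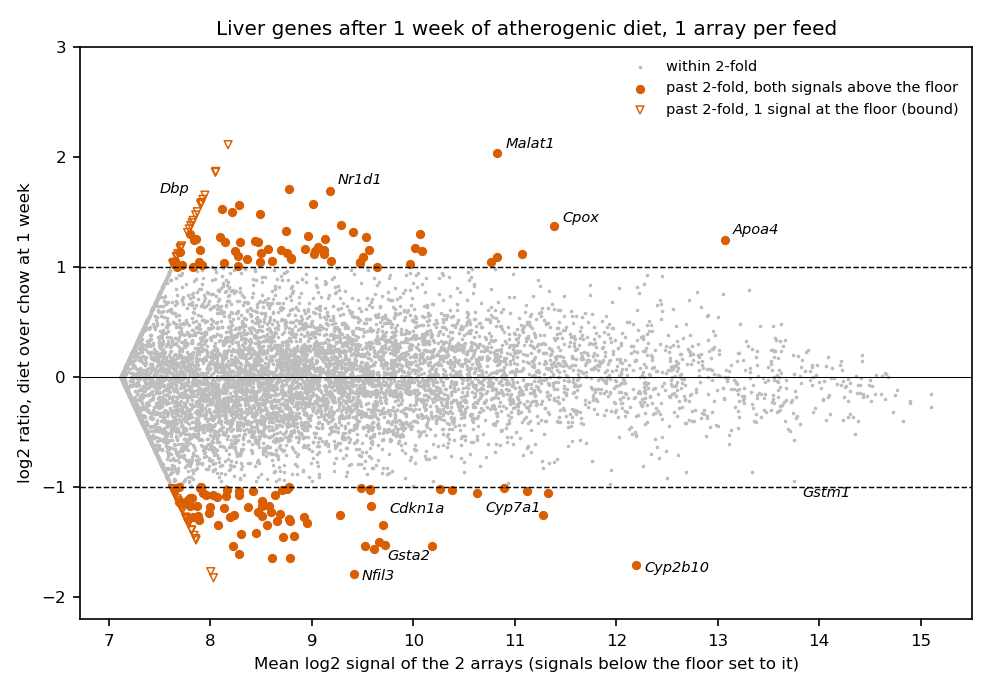
log2 ratio of the 1-week diet array over the 1-week chow array against the mean log2 signal of both, 1 point per measured gene. Filled orange points are genes past 2-fold (dashed lines) with both signals above the floor, open triangles those with 1 signal at the floor. Most called genes are dim; Cyp2b10, Apoa4, Cpox and Cyp7a1 stand among the few bright ones, and Gstm1, at -0.94, lies just inside the line.

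Sterol and bile acid genes were led by Cyp7a1, which was lower on the diet by both of its probe sets. The 5 signals of a gene are listed in the order 1-week chow, 1-week diet, 10-week chow, 10-week diet and 10-week diet with atorvastatin. Those of the brighter Cyp7a1 probe set were 2277, 1096, 2797, 1772 and 2627, and those of the dimmer one 945, 208, 664, 576 and 1310.0. The 1-week diet array was the lowest of the 5 for both, with log2 ratios of -1.05 and -2.18. The other bile acid genes did not pass 2-fold: 1 of 16 measured members of the synthesis list was lower and 0 higher, and the list median was 0.03. Cyp8b1, the sterol 12-alpha-hydroxylase that sets the share of cholic acid, had almost equal signals of 7199 and 7229 at 1 week. At 10 weeks it read 5935 on chow and 2338 on the diet. Hsd3b7, which acts early in the pathway, had a log2 ratio of 0.56, Acot8 0.42, Acox2 0.37 and Cyp39a1 -0.40. Of 13 measured genes of bile acid sensing and transport 0 passed 2-fold. Nr0b2, the FXR target SHP that represses Cyp7a1, read 1426, 992, 941, 2022 and 1134: lower on the diet at 1 week (-0.52) and higher at 10 weeks (1.10). The canalicular exporters Abcb11 (0.28) and Abcc2 (0.57) and the uptake transporter Slc10a1 (-0.18) lay well inside 2-fold.

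Cholesterol synthesis enzymes were mostly lower, each by less than 2-fold. Of 16 measured enzymes 14 had negative ratios, against 53.9% of all measured genes, and 4 were at least 1.5-fold lower (25%) and 0 as much higher, where 7.79% and 6.36% of all measured genes passed 1.5-fold in these directions. The list median was -0.34, beside -0.03 for all genes. The 4 were the 17-beta-hydroxysteroid dehydrogenase Hsd17b7, with signals of 976, 551, 973, 761 and 738, farnesyl diphosphate synthase Fdps with 422, 240.2, 1198, 2814 and 1772, squalene epoxidase Sqle with 345, 201, 336, 578 and 637, and lanosterol synthase Lss with 336, 212, 318, 548 and 394. The 1-week diet array was the lowest of the 5 for each. On chow alone Fdps read 422 at 1 week and 1198 at 10 weeks, further apart than 422 and 240.2. Only Pmvk (0.13) and Fdft1 (0.09) were positive. The median was -0.71 with the 10-week chow array as reference and -0.56 with the mean of both. Between the chow arrays, 10 weeks over 1 week, the list median was 0.50 and 4 of 16 genes were at least 2-fold higher. For diet over chow at 10 weeks the median was 0.43, with 3 genes at least 2-fold higher and 1 lower.

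LXR targets leaned the other way. Of 9 measured genes 8 had positive ratios, 1 was at least 1.5-fold higher and 0 passed 2-fold, with a median of 0.29. Abcg5 and Abcg8, which together export sterols into bile, had signals of 1749, 2532, 2452, 4126 and 2684 and 1203, 1662, 1604, 2361 and 1448. Both were higher on the diet than on chow at either time. Lipoprotein lipase Lpl read 737 and 1271 at 1 week (log2 0.79, and 0.08 from its other probe set), and the sterol exporter Abca1 2482 and 3400.0 (0.45, with -0.59 to -0.17 from others). The median fell to 0.18 with the mean of all probe sets and to 0.05 against the 10-week chow array. Of 10 sterol uptake and SREBP2 genes 0 passed 1.5-fold. Scarb1, the HDL receptor, had a ratio of 0.54 by its brightest probe set and 0.82 and 1.19 by 2 others, and Lrp1, a lipoprotein receptor, 0.58. Stard4, a sterol carrier that was 2.42 at 10 weeks, was 0.30 at 1 week, and Srebf2 was -0.25.

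**Figure D2:**
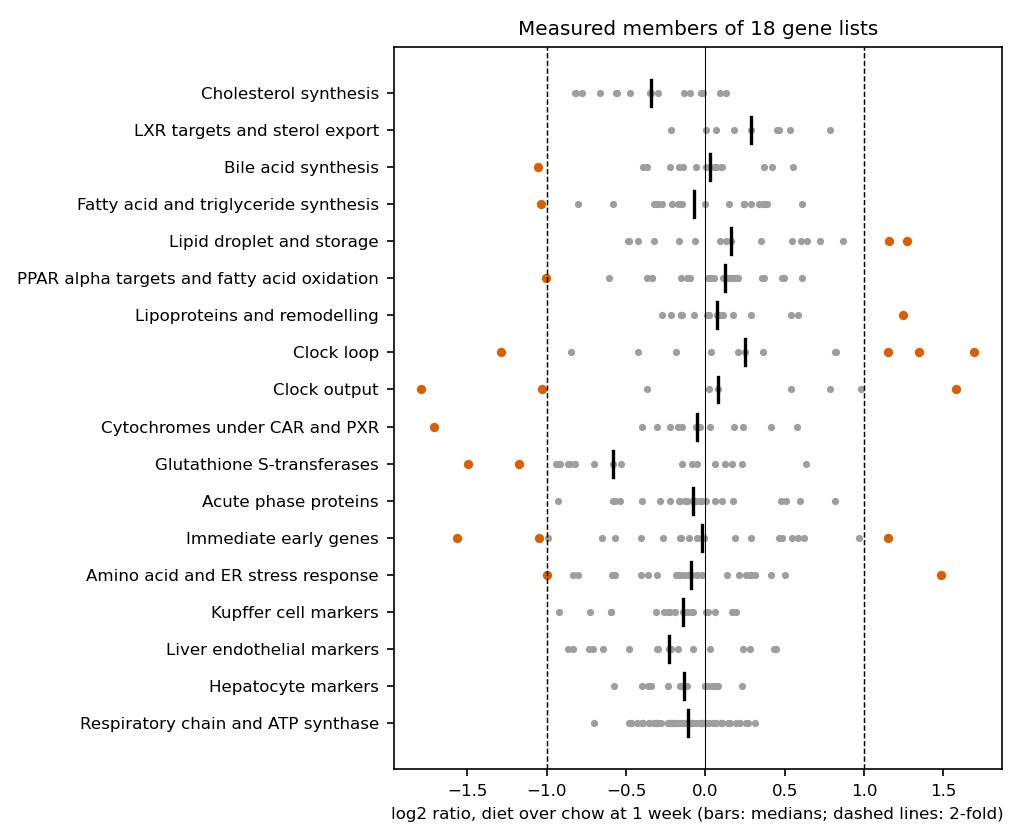
log2 ratio of the 1-week diet array over the 1-week chow array for each measured member of 18 gene lists, with list medians as black bars and genes past 2-fold in orange. Glutathione S-transferases (median -0.58) and cholesterol synthesis enzymes (-0.34) sit to the left of 0, and the clock lists spread past 2-fold on both sides.

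Among 17 measured lipoprotein genes Apoa4 was 1 higher past 2-fold and 0 were lower. This gene of intestine and liver, a component of chylomicrons and HDL, read 5583, 13216, 2203, 7190.1 and 12071 by one probe set and 4648, 13345, 1019, 5857 and 11087 by the other. Its log2 ratios were 1.24 and 1.52, and the 1-week diet array was the highest of the 5 by both. The chow arrays differed too, with 5583 at 1 week and 2203 at 10 weeks by the first. Of the others Apoa2 was the lowest, at -0.27, and Lrp1 the highest, at 0.58.

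Lipid droplet genes were higher in part. Of the 17 that could be measured, 2 stood at least 2-fold above chow and 0 as far below it; 6 were up by 1.5-fold or more (35.3% beside 6.36% of all genes) and 0 down by as much, though the list median was only 0.16. Plin3, a droplet coat protein, read 372, 829, 452, 1153 and 706 and was higher on the diet at both times. Cidec, which joins droplets into larger ones, read 176, 424, 148, 83.3 and 111: it was highest on the 1-week diet array and below the floor on both other diet arrays. Fabp5, a fatty acid binding protein, read 413, 755, 542, 4497 and 745, with most of its range at 10 weeks. Plin4 had 0.64, the monoglyceride lipase Mgll 0.60, and Fitm1 was at least 1.65-fold higher. Plin2, the main coat protein of liver droplets, was 14011 and 14925 (log2 0.09).

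Genes of fat synthesis and burning stayed near chow. In fatty acid and triglyceride synthesis 1 of 22 members was lower and 0 higher past 2-fold, with a median of -0.07 (0.71 at 10 weeks, with 11 of 24 higher). Fasn, fatty acid synthase, read 750.5, 679, 1244, 3783 and 1122, and its regulator Srebf1 625, 764, 1737, 3729 and 1924; neither was past 1.5-fold at 1 week. Scd1 was 0.15 and Pklr -0.80. The member past 2-fold was malic enzyme Me1, a source of NADPH, with 3194, 1555, 3281, 7125 and 2426; its other probe set gave -0.10 at 1 week. In fatty acid oxidation and PPAR alpha targets 1 of 26 was lower, the pyruvate dehydrogenase kinase Pdk4 with 1012, 504, 1214, 321 and 317, 0 were higher, and 18 had positive ratios with a median of 0.12. The probe sets of Cpt1a, the gate for fatty acids into mitochondria, did not match. The brightest read 5587, 7809.7, 6264, 5601 and 6498, a log2 ratio of 0.48, while the others read 528, 1641, 575, 546 and 474 and 269.8, 1179, 316, 198 and 286, ratios of 1.64 and 2.13. On these 2 probe sets, of the x class that can bind related transcripts, the 1-week diet array stood above all 4 others. Acaa1a, a peroxisomal thiolase, was 0.61 and 1.13 by its probe sets, Ppara 0.50 and the thioesterase Acot3 -0.61.

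**Figure D3:**
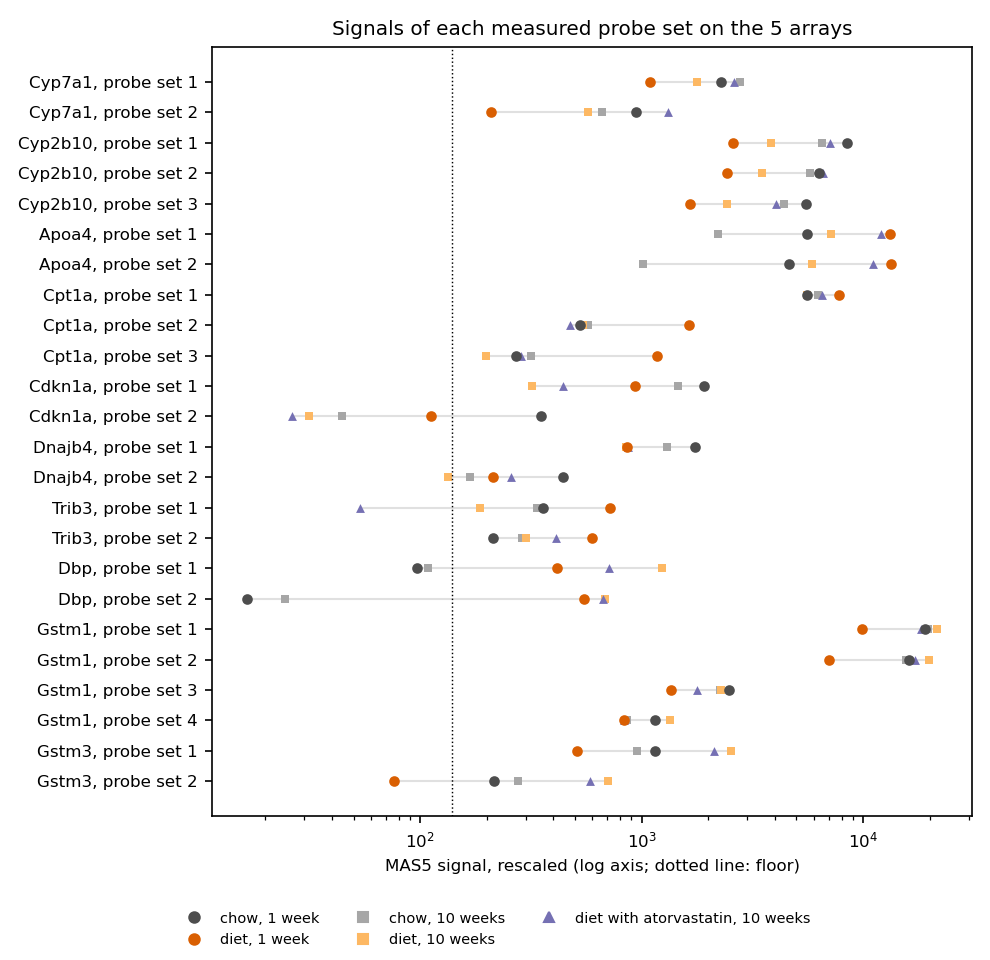
Rescaled signals on a log axis of each measured probe set of 10 genes, with 1 point per array; probe sets of a gene are numbered by their signal on the 1-week chow array. For Cyp7a1, Cyp2b10 and Apoa4 every probe set moved past 2-fold the same way at 1 week, and for Cpt1a 2 of 3 did.

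Clock genes differed in both directions: the repressors Nr1d1 and Nr1d2 were higher, and Arntl and Nfil3 lower. Of 13 measured genes of the clock loop 3 were at least 2-fold higher (23.1%, beside 1.06% of all genes) and 1 lower (7.69%, beside 1.25%), and of 9 clock output genes 1 was higher and 2 lower. Nr1d1, a repressor of the loop, read 321, 1039, 190.2, 930.3 and 772, and all 3 diet arrays lay above both chow arrays. Its relative Nr1d2 read 728, 1616, 686, 1581 and 1125, with the same separation, but its dimmer probe set went the other way at 1 week (227 and 91.4, log2 -0.71). Dbp, an output factor of the clock, read 96.3, 414, 108, 1231 and 716 and 16.5, 549.5, 24.5, 686 and 672: chow was below the floor at both times, so it was at least 2.98-fold higher at 1 week by the first probe set. Cry2 read 91.5, 353, 159, 239 and 266, at least 2.54-fold higher. Tef, a factor of the Dbp family, read 1089, 2153, 1062, 2259 and 2230.2 and just missed 2-fold (0.98, and -0.36 from another probe set). On the lower side, Arntl, the activator of the loop, read 683, 279.9, 637, 168 and 254, with all diet arrays below both chow arrays. Nfil3, the repressor that opposes Dbp, read 1266, 366, 511, 325 and 73.1; here too all diet arrays lay below both chow arrays, and the 1-week chow array stood highest. Usp2 read 1091, 534, 443, 657 and 600.1 and was high on the 1-week chow array alone, and its other probe set gave 0.25. Per1 did not differ at 1 week (238 and 243) and ran from 435 on chow to 44.8 on the diet at 10 weeks. Per3 was 0.81, Bhlhe40 0.82, Upp2 0.78, and Cry1 was at least 1.80-fold lower. The labels do not state the hour of collection, so diet and hour cannot be told apart for these genes.

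**Figure D4:**
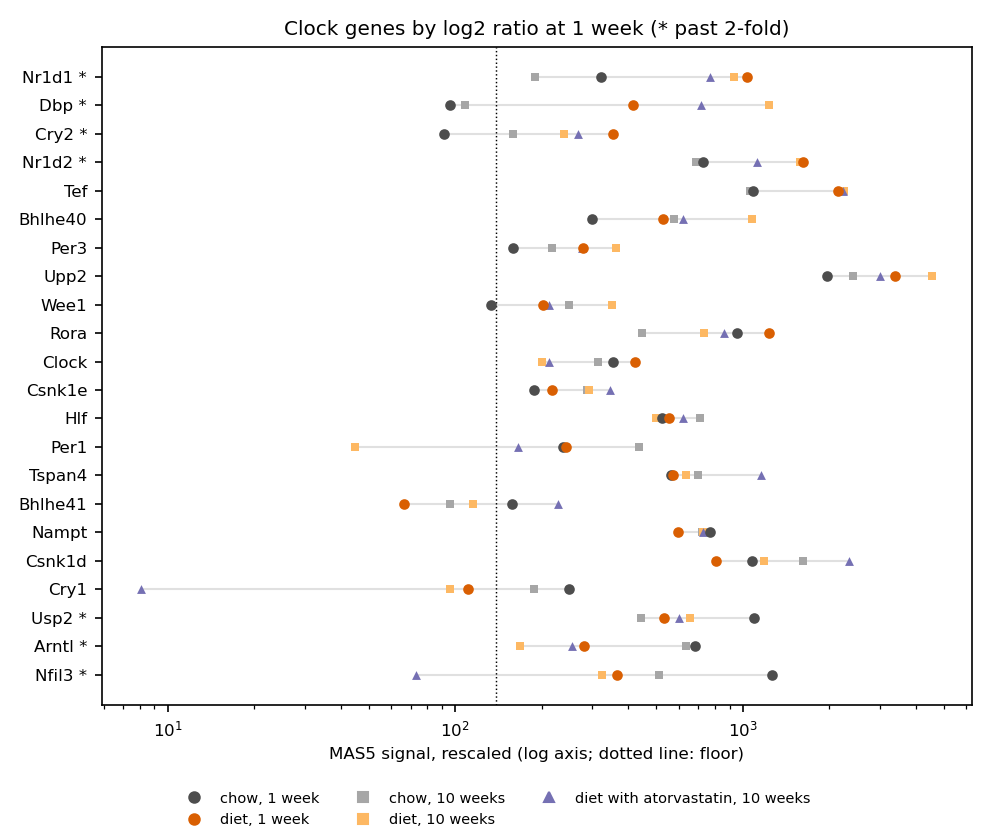
Rescaled signals on a log axis of the measured clock genes on the 5 arrays, ordered by the log2 ratio at 1 week; an asterisk marks genes past 2-fold and the dotted line the floor. For Nr1d1, Dbp, Cry2, Nr1d2 and Tef the 3 diet arrays lie above both chow arrays, and for Arntl and Nfil3 below them, while Usp2 is set apart by the 1-week chow array alone.

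Promoters of these clock genes were read from RefSeq (assembly GRCm38.p6, 250 bases before to 50 after the start, 5′ to 3′ on the gene's strand) for the 4 with the largest ratios past 2-fold and both signals above the floor. Capitals mark AGGTCA, the core of the element bound by the ROR and Nr1d factors, or its reverse complement TGACCT. The E-box of Arntl, spelled CACGTG, was also searched on both strands, as was the D-box of Dbp and Nfil3, which reads TTATGTAA, and neither was found in the 4 genes. Of 2 windows of Arntl the one with a match is shown.
Nfil3 (chr13:52980990-52981289, minus strand): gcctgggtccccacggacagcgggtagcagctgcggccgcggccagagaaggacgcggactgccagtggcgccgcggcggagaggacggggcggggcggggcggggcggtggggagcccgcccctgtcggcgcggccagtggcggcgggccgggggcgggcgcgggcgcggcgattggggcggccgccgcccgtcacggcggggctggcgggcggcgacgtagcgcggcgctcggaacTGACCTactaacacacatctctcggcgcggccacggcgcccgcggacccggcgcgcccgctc
Nr1d1 (chr11:98775328-98775627, minus strand): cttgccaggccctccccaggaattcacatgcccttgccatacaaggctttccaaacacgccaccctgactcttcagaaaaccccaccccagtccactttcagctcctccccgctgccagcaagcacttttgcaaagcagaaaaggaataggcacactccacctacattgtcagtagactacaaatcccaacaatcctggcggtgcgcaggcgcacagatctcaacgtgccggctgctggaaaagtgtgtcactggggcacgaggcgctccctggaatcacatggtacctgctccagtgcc
Arntl (chr7:113207261-113207560, plus strand): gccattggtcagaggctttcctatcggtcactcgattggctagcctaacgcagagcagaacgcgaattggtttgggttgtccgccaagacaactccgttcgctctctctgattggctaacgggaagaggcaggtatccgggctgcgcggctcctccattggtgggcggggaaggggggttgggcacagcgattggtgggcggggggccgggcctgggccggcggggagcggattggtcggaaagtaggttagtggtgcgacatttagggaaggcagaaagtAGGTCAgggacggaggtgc
Nr1d2 (chr14:18239057-18239356, minus strand): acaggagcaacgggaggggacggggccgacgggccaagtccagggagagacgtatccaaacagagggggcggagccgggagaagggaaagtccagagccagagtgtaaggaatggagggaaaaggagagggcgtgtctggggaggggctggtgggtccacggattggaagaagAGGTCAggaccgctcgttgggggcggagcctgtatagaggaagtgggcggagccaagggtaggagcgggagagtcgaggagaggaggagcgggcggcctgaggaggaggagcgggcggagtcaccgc
The AGGTCA core was present in Nfil3, Nr1d2 and 1 of 2 windows of Arntl, that is in 3 of the 7 clock genes past 2-fold. Of 32851 promoters 16.3% hold it. E-boxes are held by 7.15% and D-boxes by 0.938% of promoters, and by 0 of the 7. A gene was counted if any of its windows had a match, while the percentages are over single promoter windows, so the 2 are not on the same unit. A match is not a site in use, and no match says only that these letters are not in the window.

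Drug metabolism gave the brightest of the lower genes. Cyp2b10, a cytochrome under the receptor CAR, read 8474, 2588, 6550.2, 3847 and 7078 by its brightest probe set, and 6316, 2439, 5739, 3500.2 and 6600.1 and 5501, 1662, 4378, 2424 and 4036 by the others. The 1-week diet array was the lowest of the 5 by all 3, with log2 ratios of -1.71, -1.37 and -1.73, and the 10-week diet array came next. Of these probe sets 2 are of the s class and can bind more than 1 transcript, and Cyp2b9 (0.24) and Cyp2b13 (0.58), close relatives, had positive ratios. Of 15 measured genes of the CAR and PXR list Cyp2b10 alone passed 2-fold. The receptor gene Nr1i3, which encodes CAR, was 0.41, and Cyp3a11, the main PXR target, was 23300.1 and 20999 (-0.15). Among 16 other cytochromes Cyp2j6, with 119.5, 285, 184, 226 and 277, was at least 2.05-fold higher, and Cyp4f15, Cyp4f13 and Cyp1a1 had 0.83, 0.75 and 0.71.

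Glutathione S-transferases, which join glutathione to reactive compounds, were lower as a family. Of 19 measured members 14 had negative ratios and 2 were at least 2-fold lower (10.5%, beside 1.25% of all genes) and 0 higher. At least 1.5-fold lower were 9 (47.4%, beside 7.79%), and 1 was as much higher. The median was -0.58; it ran from -0.60 to -0.46 over the other normalizations, floors, probe set rules and chow references tried. Gsta2 of the alpha class read 1362, 482, 3431, 597 and 1042, with its lowest value on the 1-week diet array. Gstm3 of the mu class read 1148, 509, 953, 2526 and 2121 and 216, 75.9, 278, 709 and 586: lowest at 1 week of diet, highest at 10 weeks of diet. Gstm1, one of the brightest genes of the liver, read 19104, 9948, 19634, 21697 and 18342 and by its other probe sets 16132, 7037, 15608, 19952 and 17091, 2490.4, 1362, 2268, 2278 and 1778 and 1149, 832, 863, 1342 and 835. Each of the 4 was lowest on the 1-week diet array, with log2 ratios from -1.20 to -0.47. Gsta3 read 7960.0, 4211, 11383, 9324 and 10454 (-0.92, and -0.32 from its other probe set), Gstm6 518, 273, 799, 1156 and 598 and Gstp1, of the pi class, 14008, 7688, 11633, 7192 and 8906. All 3 alpha genes and 6 of 7 mu genes were negative, while 1 of 3 theta genes was, and Gstt2 had 0.63. At 10 weeks of diet the mu class had a median of 0.77 and the alpha class of -0.52. Genes of the mu class resemble one another closely, so a probe set can bind RNA of several. Of 20 other NRF2 and glutathione genes 0 passed 2-fold, with Nfe2l2, which encodes NRF2, at -0.75 and the epoxide hydrolase Ephx1 at -0.67. Of 10 sulfo- and glucuronyl-transferases 8 were negative and 0 past 2-fold, with Sult2a2, a bile acid sulfotransferase, at 5506 and 2804. Metallothioneins, which bind zinc, were positive, with Mt1 at 0.48 and Mt2 at 0.93, but their median of 0.71 turned to -0.30 with the 10-week chow array as reference (0.21 with the mean of both), and on the 10-week arrays both were lower on the diet (-1.90 and -1.32).

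**Figure D5:**
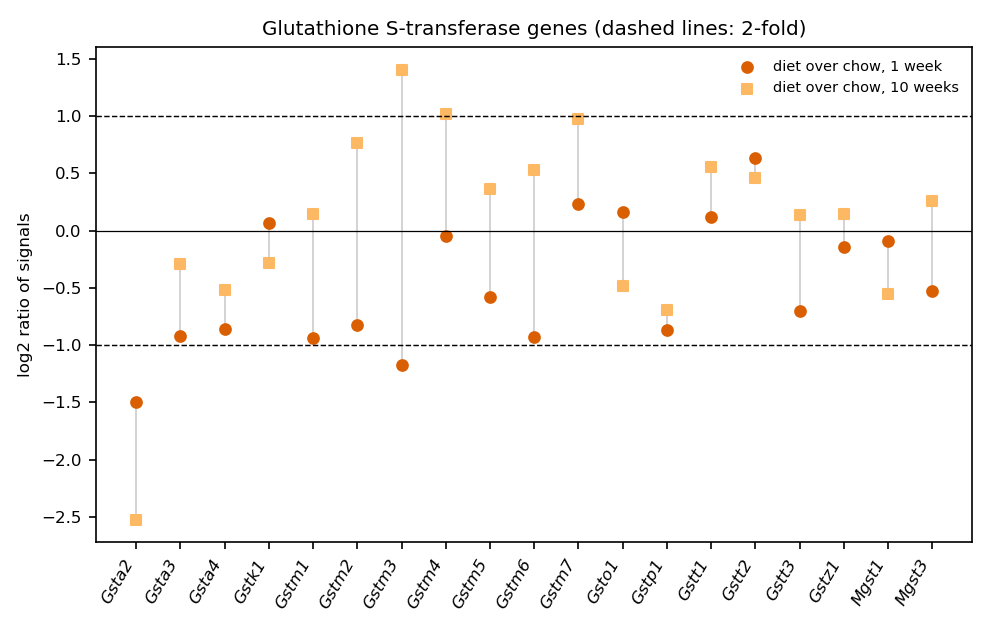
log2 ratio of diet over chow for the 19 measured glutathione S-transferase genes, circles at 1 week and squares at 10 weeks. The circles of the alpha genes lie between -1.50 and -0.86, while the mu genes Gstm2, Gstm3 and Gstm6 are negative at 1 week and positive at 10 weeks.

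Stress and growth arrest genes differed singly. Cdkn1a, the cell cycle inhibitor p21, read 1906, 933, 1459.9, 321 and 439.9 and 351, 112, 44.2, 31.6 and 26.4, and by the brighter probe set each diet array was lower than both chow arrays, with a log2 ratio of -1.03 at 1 week. Dnajb4, a chaperone partner, read 1745, 861, 1299, 854 and 864 and 441, 213, 168, 134 and 257, a ratio of -1.02, with 1-week chow highest. Trib3, a pseudokinase of the amino acid response, read 214, 599, 288, 302 and 409.9 and 359, 718, 336, 186 and 53.6: highest on the 1-week diet array by both probe sets, at 1.49 and 1.00. The rest of that pathway did not follow it, since of 28 measured members 1 was higher, 1 lower (Ddit4, 618 and 309) and 19 negative, with Ddit3 at -0.41 and Asns at -0.16. Of p53-linked genes the cell death gene Bbc3 was 1.23 and Mdm2 -0.66. Immediate early genes went both ways: of 23 measured Junb was higher, with 278, 617, 261, 854 and 509, and Fos and Dusp1 lower, with 1351, 456, 269, 304 and 339 and 3709.7, 1790.5, 2753, 1585 and 2042. Fos was high on the 1-week chow array alone. Sgk1, -0.99, and Nr4a1, 0.97, lay just inside 2-fold. Cpox, an enzyme of heme synthesis, read 1662, 4312, 2233, 1155 and 1558, but its other probe set only 1516 and 1805 at 1 week.

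Few inflammatory genes or markers of other liver cells passed 2-fold. Of 24 acute phase genes 0 did so either way, 2 were at least 1.5-fold higher and 1 lower, and Saa1 read 1094 on chow and 754 on the diet at 1 week. Of 25 interferon-stimulated genes 3 were at least 1.5-fold higher (12% beside 6.36%) and 0 lower. Of these Samhd1 alone passed 2-fold, at 1.57, and the interferon-linked Rtp4, which is not in the list, had 1.32. Of 18 measured chemokine, cytokine and adhesion genes 14 were negative and 1 was at least 2-fold lower, the adhesion molecule Vcam1 with 632, 256, 528, 388 and 738; its other probe sets gave -0.17 and 0.50. Of 19 Kupffer cell markers 14 were negative, 4 at least 1.5-fold lower (21.1% beside 7.79%) and 0 higher, led by C1qb, -0.92, whose other probe sets were positive, and Vsig4, -0.73. Of 17 endothelial markers 12 were negative, 5 at least 1.5-fold lower (29.4%) and 0 higher. Among them Fcgr2b read 1949, 1069.8, 1376, 1148 and 2161, with all 4 probe sets between -0.87 and -0.64. Plvap, an endothelial gene that is not in this list, went the other way and was 2.44-fold higher. Of 7 measured neutrophil markers 1 was past 2-fold lower (14.3% beside 1.25% of all genes) and 0 higher. It was Ltf, at least 2.07-fold lower. Marker signals were summed over all named members of each list, those below the floor included. On the diet array the sum was 0.883 times that on the chow array for Kupffer cells, 0.822 for endothelial cells and 0.896 for stellate cells. It was 0.909 for neutrophils, 0.994 for lymphocytes, 1.03 for fat and pancreas and 0.894 for the 16 hepatocyte markers. For red blood cells it was 1.03, with 2 of 6 named markers measured. For bile duct it was 2.29, with 1 of 9 named markers measured. Of the hepatocyte markers 11 were negative, and Alb, albumin, had -0.24. In RNA of whole liver, fewer cells of a type and less RNA per cell cannot be told apart. Against the 10-week chow array the Kupffer and endothelial medians were 0.24 and 0.15 instead of -0.14 and -0.23. Of the bile duct markers Krt23, a keratin, was the 1 of 9 measured: it read 23.8, 412, 44.5, 553 and 128, at least 2.97-fold higher, with the other 8 below the floor on both arrays.

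The largest ratios included those of genes whose probe sets differed. Malat1, a long noncoding RNA, read 894, 3679, 496, 1748 and 2285, 4.12-fold higher at 1 week, while its 3 other measured probe sets gave -0.59 to 0.49. Nfib, a transcription factor, read 242, 790.0, 183, 409 and 445, with -0.15 to 0.36 from others. Other genes near the top were Naglu, a lysosomal enzyme (181 and 533), Rps4l (163 and 472), the interferon-linked Rtp4 (271 and 677) and the endothelial gene Plvap (319 and 777), each with 1 measured probe set. Pmf1 was at least 4.32-fold higher, but its low value was on the 1-week chow array alone, with 97.2, 601, 971, 1168 and 642. Lower were the calcium-sensing receptor Casr with 779, 249, 336, 597 and 642, the adaptor Nck1 with 689, 220.1, 511, 562 and 389, the growth factor Btc with 543, 178, 461, 387 and 375, the transcription factor Foxf1 with 510.2, 176, 414, 534 and 268 and the deacetylase Sirt2 with 571, 213, 455, 731 and 700.1. For Casr, Nck1, Btc, Foxf1 and Sirt2 the 1-week diet array was the lowest of the 5. AY036118, a sequence identifier with no established role, read 3838, 1605, 9098, 1024 and 5299.

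Where a gene had several probe sets, they seldom bore out a 2-fold call. Of the 203 called genes 135 had 1 measured probe set. Of the other 68 another probe set moved the same way by at least 1.5-fold for 17 (25%), the opposite way for 7, and neither for 44; over all 2923 measured genes with other probe sets 16.1% had such a partner. A partner past 2-fold was found for 8: Dbp, Samhd1, Trim27 and Apoa4 on the higher side, and Cyp7a1, Cyp2b10, Cdkn1a and Dnajb4 on the lower. Samhd1 and Trim27 also had probe sets at -0.26 and -0.24. Another rule, chosen after the values were seen, asked that all of at least 2 probe sets move past 1.5-fold the same way: 53 of 2925 genes met it (1.81%), 22 higher and 31 lower, against 93 of 3049 (3.05%) between the chow arrays. Beside genes above, they included on the higher side Bdh1, a ketone body enzyme (3143 and 5034), and Pik3ca, a lipid kinase (308 and 569), and on the lower side the integrin Itgb1 (1698 and 1033), the endothelial lipase Lipg (554 and 289) and the stress sensor Sesn2 (295 and 169).

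With the other chow array as reference 68 of the 203 calls were made again. The 10-week chow array differs from the 1-week diet array in time and age of the mice as well as feed. Of the 93 higher genes 28, and of the 110 lower genes 40, were also 2-fold beyond it on the same side. Of all 8939 genes measured in that pair 196 were 2-fold higher and 264 lower. Both ratios share the 1-week diet array, so the second is not an independent repeat of the first. Among the 93 the 1-week diet array was the highest of the 5 for 67, and the 1-week chow array the lowest for 51. Among the 110 the 1-week diet array was the lowest for 76 and the 1-week chow array the highest for 56. The calls were picked on these same arrays, so the rule itself raises such counts. No share over all genes was computed beside them, and they do not back the calls. Of 8420 genes measured at both diet times, in comparisons that share no array, 14 were 2-fold higher at both and 7 lower at both, while 9 went from higher to lower and 10 from lower to higher. As background, 336 of all 9250 genes measured at 10 weeks were 2-fold higher on the diet there and 284 lower. Of the 88 genes higher at 1 week that were measured at 10 weeks, 47 had a positive ratio there, where 54.0% of all genes did, and of the 103 lower genes 43 had a negative one, where 46.0% did. Beside Malat1, Nr1d1, Nr1d2, Dbp, Krt23, Apoa4, Nfib, Plin3 and Junb, the genes higher at both times were Phlda1, a pleckstrin domain gene with 693, 1557, 352, 919.6 and 1423, Ngef with 50.6, 417, 47.2, 410.0 and 278, Il17rc, a cytokine receptor chain with 159, 354, 97.4, 330.5 and 105, Afg3l1 and Rnf113a1. Beside Gsta2, Arntl, AY036118, Cdkn1a and Pdk4, those lower at both were the respiratory chain gene Ndufb1, with 429, 168, 282, 85.2 and 138, and Scaf8.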

How the data were processed

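The values the authors deposited are linear intensities, 1 for each probe set of each array. Per the submitters' processing notes they come from MAS5 (version not given), which reduces a set of perfect-match and mismatch probes to 1 value and scales each array to a common mean. Each array was rescaled to a 2% trimmed mean of 500.2, given a floor of 138.9 (40th percentile, the 64 control probe sets left out) and log2-transformed. The platform annotation names a single gene for 20380 of 22690 probe sets, which were used, several for 691, and does not list 1606. Of their gene identifiers 99.9% matched the table of GRCm38.p6, used for names, and 0 symbols changed. The probe set with the highest mean log2 signal over the 5 arrays stands for a gene. A fold with 1 side at the floor is the brighter signal over the floor. No test or p-value was made, and the number of arrays limits the precision. The labels give no batch.

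Named genes are, per direction, the 15 largest ratios with both signals above the floor and the 5 largest bounds, and then list members past 2-fold with up to 4 others per list, genes with a second probe set past 2-fold, genes past 2-fold at both diet times, and preset genes. Loci with clone names were passed over. Asns, Bdh1, Cyp2b9, Ddit3, Fdft1, Gstt2, Itgb1, Lipg, Orm3, Per1, Pik3ca, Plin2 and Pmvk are named beyond this rule, with their values in view. The comparison, the 47 gene lists (986 genes, 853 with a named probe set) and these rules were chosen with earlier results of these data known. Computations used Python 3.11.15 with pandas 2.3.3 and numpy 2.4.6, and R 4.3.3 with limma 3.58.1 for quantile and cyclic loess normalization. Alternatives were those 2, no rescaling, a floor at the 20th or the 60th percentile, the floor as a pseudocount, averaging a gene's probe sets, dropping those of the x and s classes, 1.5-fold and 3-fold rules, and the other chow array or the mean of both as reference.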

Additional observations from a re-analysis of the deposited data

Results flagged for a closer look

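A group of 19 genes was past 2-fold in opposite directions at the 2 diet times. With 1 array per group the difference between times was not tested, and the comparisons share no array. Lower at 1 week and higher at 10 weeks were 10 genes. Gstm3 had log2 ratios of -1.17 and 1.41, and both of its probe sets went this way. Me1 had -1.04 and 1.12, where its other probe set gave -0.10 and 1.11. The kinase Dyrk1b had -1.44 and 1.74, with chow signals of 748 at 1 week and 163 at 10 weeks. Add3, a membrane skeleton gene, had -1.19 and 1.63 (other probe set -0.10 at 1 week), and Dct -1.17 and 1.37. The kinase Srpk1 had -1.08 and, with the 10-week chow signal at the floor, at least 1.37. Yme1l1, a mitochondrial protease, had -1.02 and 1.39, while its other probe sets gave 0.06 and 0.77 at 1 week. Pip5k1b (-1.20 and 1.55), the glucosylceramide synthase Ugcg (-1.14 and 1.73) and Cdc42ep5 (-1.11 and 1.34) had a 1-week diet signal at the floor, and Pip5k1b and Ugcg also a 10-week chow signal there, so the ratios concerned are bounds. Other probe sets at 1 week gave 0.55 for Pip5k1b and 0.67 for Cdc42ep5, the opposite way for both, and -0.71 and -0.18 for Ugcg.

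Higher at 1 week and lower at 10 weeks were 9 genes. Samhd1 had 1.57 and -1.39, the desmosome gene Dsp 1.27 and -1.07, the phosphatase Ptpn2 1.12 and -1.15, Reep3 1.09 and -1.38, and Helz2 1.05 and -1.41. Dedd (1.87 and -1.04), Gpatch1 (1.19 and -1.16), Bag6 (1.17 and -1.15) and Nop2 (1.03 and -1.46) had a 1-week chow signal at the floor, and Bag6 and Nop2 also a 10-week diet signal there, so these ratios are bounds too. Other probe sets at 1 week gave -0.26 to 2.01 for Samhd1, -0.20 and 0.42 for Dsp, -0.21 for Ptpn2, -0.71 to 0.48 for Reep3, and -0.44 and 0.29 for Dedd. For Samhd1, Gpatch1, Ptpn2, Reep3 and Nop2 the 10-week chow array was the highest of the 5, so the 1-week diet signal lay below it.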

How the results depend on the processing

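The counts were 93 higher and 110 lower genes. Both stayed within 1.5 times of these without rescaling (93 and 110), with quantile normalization (106 and 90), cyclic loess (138 and 96), the mean of all probe sets (68 and 79), without x and s probe sets (89 and 111) and with both chow arrays averaged (72 and 87), although the share of calls that were higher was 59.0% with cyclic loess against 45.8%. With the floor at the 20th percentile they were 332 and 500, at the 60th percentile 39 and 39, with a pseudocount 47 and 46, with the 10-week chow array 196 and 264, at 1.5-fold 560 and 686, and at 3-fold 9 and 7. Asking 2-fold of the other probe set left 8 genes with a partner in place of 17. Of 86 named genes past 2-fold, 38 fell below it with the floor at the 60th percentile, 37 with a pseudocount, 34 with both chow arrays averaged, 29 with the mean of all probe sets, 5 each with quantile normalization and cyclic loess, 5 of 83 without x and s probe sets and 47 of 83 against the 10-week chow array, turned directions included. The 15 past 2-fold in all 8 alternatives that keep the chow array were Apoa4, Cyp2b10, Gsta2, Nr1d1, Nfil3, Fos, Casr, Nck1, Dyrk1b, Mvb12b, Phlda1, Plvap, Sirt2, Ubr4 and AY036118. All but Apoa4, Cyp2b10 and Nck1 had 1 measured probe set, so averaging probe sets or dropping x and s classes could not change them. Leaving out the rescaling changed little by design, as the trimmed means were already 500.22 on the 1-week chow array and 500.21 on the 1-week diet array.

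Against the 10-week chow array 23 of the 203 calls turned direction, 14 of them of named genes: Ddit4 (0.49), Dyrk1b (0.76), Fos (0.76), Srpk1 (0.49), Timp3 (0.83), Usp2 (0.27), Yme1l1 (0.64), Gpatch1 (-0.77), Mup5 (-0.39), Nop2 (-0.44), Pmf1 (-0.69), Ptpn2 (-0.48), Reep3 (-0.24) and Samhd1 (-0.23). Directions turned without x and s probe sets for Dedd (-0.44), Pqbp1 (-0.0097) and Samhd1 (-0.26), and for Pip5k1b (1.18) once the floor was lowered to the 20th percentile. In these last 4 values another probe set stood for the gene; for the 14 others the cause was not tested. With the 10-week chow array many list medians changed sign. They turned from 0.12 to -0.03 for fatty acid oxidation, from 0.03 to -0.06 for bile acid synthesis and from -0.02 to 0.25 for the proteasome. The clock loop went from 0.25 to -0.12, clock output from 0.08 to -0.27, and growth hormone and IGF genes from 0.23 to -0.16. Other cytochromes went from 0.30 to -0.05, urea cycle genes from 0.08 to -0.17 and matrix genes from -0.11 to 0.11. Immediate early genes went from -0.02 to 0.25, heat shock genes from -0.06 to 0.20 and lipoprotein genes from 0.07 to -0.08. No paired analysis was possible because each group is 1 array, and no replicate could be left out. Signals near the floor limit the dim genes: 112 of the 203 called genes were below 500 on both arrays.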

Other observations

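Large housekeeping complexes shifted little. Of 64 measured genes in the list of the respiratory chain and ATP synthase 48 had negative ratios, 0 passed 2-fold and the median was -0.11. Ndufb5 was the lowest of the list at -0.70, and Atp5c1 had -0.48. Ndufb1, a respiratory chain gene that is not in the list, was past 2-fold lower, at -1.35. Of 35 cytosolic ribosomal protein genes 25 were negative, with a median of -0.14 and Rpl11 at -0.87. The 31 proteasome genes had a median of -0.02, with Psmd3 at 0.74 and Psmc6 at -0.71. Of 14 measured cell cycle genes Rrm1, a ribonucleotide reductase subunit, was at least 2-fold lower, with 383, 169, 309.7, 461 and 352 and 0.44 from another probe set. Pcna, the DNA polymerase clamp, read 1171, 641, 1111, 1352 and 1287, and Ccnd1, cyclin D1, 717, 1169.8, 1700.2, 2436 and 904.

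Of 12 measured sex-biased liver genes 11 had positive ratios, 1 was at least 2-fold higher, and the median was 0.24 at 1 week, but -0.36 with the 10-week chow array as reference. The gene past 2-fold was Mup5, a urinary protein that closely resembles its family, with 306, 645, 843, 1406 and 910.3. Of 9 urea cycle and ammonia genes 0 passed 2-fold. Glul, the glutamine synthetase of cells around the central vein, read 4082, 7699, 8635, 3470.2 and 4060.3 and was higher on the 1-week diet array (0.92), where at 10 weeks it was lower (-1.32). In glucose metabolism, pyruvate carboxylase Pcx read 5439, 9307, 5015, 6808 and 4693, highest of the 5 arrays at 1 week of diet. Its control probe sets on the array differed by position. At 1 week the 3' one read 2644 on chow and 4159 on the diet, and those of the middle 719 and 877 and 1093 and 1597. The 5' one went the other way, with 691 and 432. G6pc, glucose-6-phosphatase, read 9107, 6276, 14508, 5372 and 3609. Of 24 measured matrix genes Timp3, a protease inhibitor, was at least 2-fold lower, with 538, 247, 119.5, 137 and 721 and -0.41 to -0.32 from other probe sets, and the basement membrane collagen Col4a1 was 0.78.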
